A study of Homo sapiens with 2 samples.

Results

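Interferon-stimulated genes are the transcripts that cells switch on when interferon, or RNA sensed in the cytosol, signals that a virus may be present, and their levels were compared here between colon carcinoma cells expressing the circular RNA CDR1AS and cells with a control lentivirus. The set was a fixed list of 43 gene names, chosen with earlier results of these data known. RIGI and DDX58 name the same gene, so that it held 42 genes. Probes were taken where the platform's annotation gave one of these symbols. This found 45 probes for 39 genes, of 18638 genes with a symbol on the array, and IFITM2, IFITM3 and STAT2 were not analysed here. The study measured RNA of SW620, an established human colon carcinoma line grown in standard medium, on 2 arrays. The CDR1AS expressing cells (1 array) and the cells with control lentivirus (1 array) shared the line and the culture. Details on clonality and on the promoter that drove CDR1AS were not given in the sources used here. No probe was matched to circular CDR1AS, so its own level does not check the labels.

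In this pathway the helicases RIG-I (gene RIGI) and MDA5 (gene IFIH1) bind double-stranded RNA in the cytosol and signal through the adaptor MAVS to the kinase TBK1, which activates interferon regulatory factors. Secreted interferon then binds its receptors and activates a complex that includes STAT2 and IRF9 and binds the interferon-stimulated response element (ISRE) in the promoters of its target genes. The targets include the sensors themselves, so the circuit feeds back on its own components. Carcinoma lines differ in how much of this programme they express without any added interferon.

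Each group was 1 array, so every difference below is between 2 arrays, has no replicate error, and was given no test. A spot was above background where it exceeded the mean of 384 blank spots by more than 2 SD, which set limits of 72.1 on the CDR1AS array and 69.1 on the control array, in the arbitrary intensity units of the deposited spot files. Repeated positive-control spots on the same array varied by an SD of 0.13 and 0.24 on the log2 scale on the CDR1AS array and of 0.10 and 0.14 on the control array (24 spots each). Log2 ratios are CDR1AS minus control on the normalized scale, where an added constant of 50 draws dim genes towards 0. The deposited value table, which subtracts the blank level and adds no constant, is given beside them. The colon epithelial markers EPCAM, KRT18 and KRT19 were bright on both arrays, and the 9 measured markers of this list had log2 ratios from −0.82 (CDX2) to 0.83 (KRT19), with −0.54 for EPCAM, −0.48 for KRT18 and a median of −0.05. Their part in the results below was not tested. The intestinal marker CEACAM5 was near background (69.4 on the CDR1AS array, not above its limit, and 69.9 on the control array). Of 7 measured leukocyte markers 0 were past 2-fold, beside 0.575% of all measured genes lower and 0.755% higher, so that few would be awaited. The brightest were LYZ (203 on the CDR1AS array and 201 on the control array) and CD14 (120 and 122). PTPRC, CD4, CD8A and MS4A1 were not above background on either array.

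Most of the listed interferon-stimulated genes were lower on the CDR1AS array. The list was chosen with earlier results of these data known, so the counts below describe it and do not test it. In RNA of whole cultures, fewer cells expressing a gene and less RNA per cell cannot be told apart. Of 37 members measured above background on at least 1 array, 32 had a log2 ratio below 0, beside 52.7% of all 16685 measured genes. IFI44 and CMPK2, both among the 32, passed this filter through the control array only, and 35 members passed on both arrays. Without the filter, 34 of 39 members were below 0, beside 9883 of 18638 genes. The median of the members was −0.33, against −0.01 over all measured genes, and 27 of the 37 lay below the lower quartile of all genes (−0.10). At least 2-fold lower were 4 members, IFIH1, BST2, IFI27 and OAS3, beside 0.575% of all measured genes. No member was at least 2-fold higher (0 of 37, beside 0.755% of all measured genes), and the highest ratio was that of MX2 (0.12). By the values the authors deposited, 32 of 38 members were below 0, beside 44.2% of all genes, and 13 were at least 2-fold lower, beside 2.61%. There 0 were at least 2-fold higher, beside 3.96%. Those 13 were the same 4 genes and USP18, IFI44, MX1, IFIT1, DDX60, SAMD9, OASL, TRIM22 and CMPK2. IFI44 and CMPK2, and DHX58 among the 32 below 0, were empty in the CDR1AS column and were counted against the lowest value listed there.

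**Figure D1:**
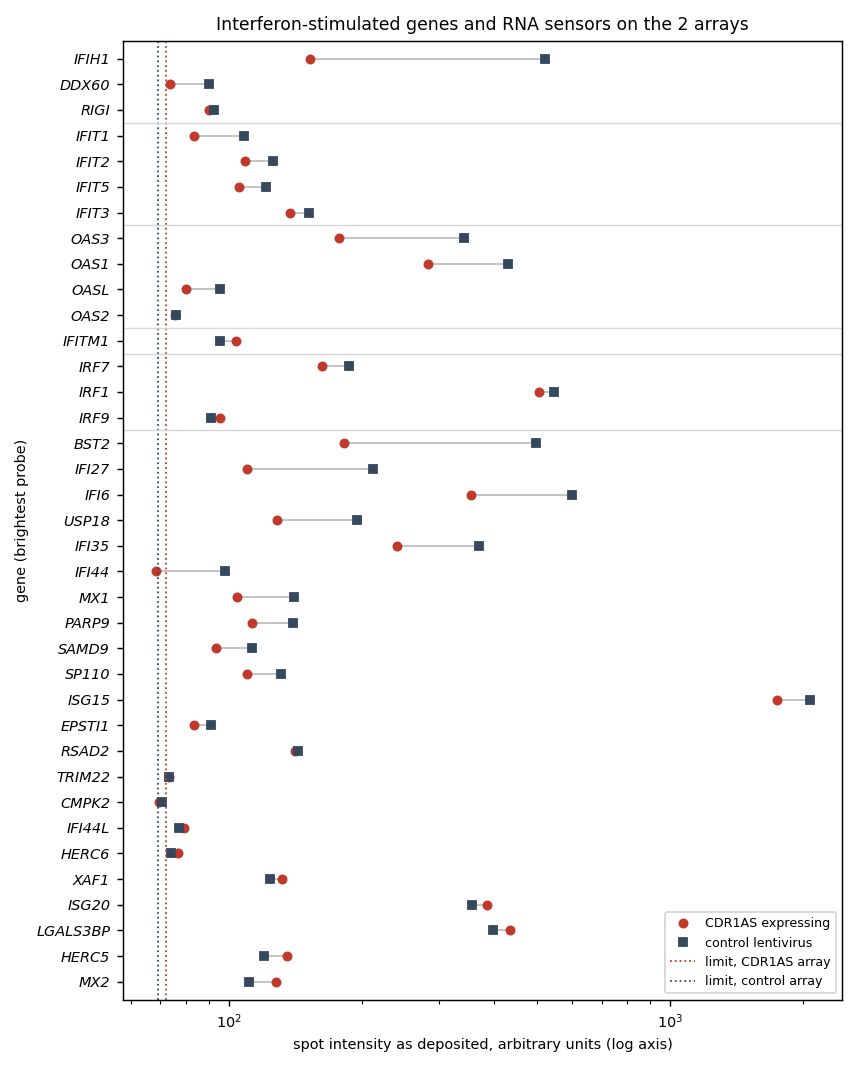
Spot intensity (log axis, arbitrary units) of the brightest probe of each of the 37 measured members on the CDR1AS array (circles) and the control array (squares), with the background limit of each array dotted, from RNA sensors at the top to other effectors at the bottom. Wide gaps with the CDR1AS value on the left stand out for IFIH1, BST2, OAS3, IFI27 and IFI6, while many members lie close to the limits.

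The RNA sensors differed in how far they were apart between the arrays. IFIH1, which encodes MDA5, the sensor of long double-stranded RNA, had a spot of 153 on the CDR1AS array, against 519.7 on the control array. Its log2 ratio was −1.98, or 3.95-fold lower, the lowest of the 37 members. In the deposited table its values were 38.2 on the CDR1AS array and 216.3 on the control array, a ratio of 5.66-fold lower. RIGI, which encodes the sensor of short and triphosphate-ended RNA, had 90.0 on the CDR1AS array and 92.4 on the control array for its brightest probe (log2 ratio −0.14). Its other probe gave −0.35, with spots of 78.0 and 90.1 on the CDR1AS and control arrays. RIGI was therefore dim on both arrays, and the size of its difference is poorly measured. DDX60, a helicase that has been reported to promote signalling by these sensors, had 73.7 on the CDR1AS array, just over the limit, and 90.1 on the control array (log2 ratio −0.45). DHX58, which encodes LGP2, a regulator of MDA5 and RIG-I that lacks their signalling domains, was not above background on either array.

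Among the effectors, BST2, the gene of tetherin, a membrane protein that holds budding virus particles at the cell surface, was the second lowest. Its spot was 182 on the CDR1AS array and 497 on the control array, a log2 ratio of −1.63 or 3.10-fold lower, and the deposited values were 51.6 on the CDR1AS array and 205.2 on the control array. IFI27, a small hydrophobic membrane protein gene, had 109.7 on the CDR1AS array and 212 on the control array (log2 ratio −1.16, 2.23-fold lower). OAS3, the gene of an oligoadenylate synthetase, had 178 on the CDR1AS array and 342 on the control array with its brightest probe (log2 ratio −1.11, 2.16-fold lower). The control values of these 3 genes were all well over the limit of 69.1. The other OAS3 probe was near background on both arrays, with 77.2 on the CDR1AS array and 72.5 on the control array, and gave 0.01. Just short of 2-fold was IFI6, an endoplasmic reticulum protein gene with antiviral action, with 353 on the CDR1AS array and 599 on the control array (log2 ratio −0.91, 1.88-fold lower).

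The promoters of the 4 members at least 2-fold lower are shown because each holds the core of the ISRE, the element through which interferon acts. They are RefSeq sequences of GRCh38.p14, 250 bases up to the base before the annotated start of transcription, written 5′ to 3′ in the direction of the gene. Capitals mark each match to the ISRE core, which is GAAA, any 2 bases and GAAA again, on either strand. A match on the opposite strand reads TTTC, any 2 bases and TTTC, and neighbouring matches can overlap. For IFI27, which has 2 annotated starts, the first is shown.
IFIH1, chr2:162318685-162318934, minus strand: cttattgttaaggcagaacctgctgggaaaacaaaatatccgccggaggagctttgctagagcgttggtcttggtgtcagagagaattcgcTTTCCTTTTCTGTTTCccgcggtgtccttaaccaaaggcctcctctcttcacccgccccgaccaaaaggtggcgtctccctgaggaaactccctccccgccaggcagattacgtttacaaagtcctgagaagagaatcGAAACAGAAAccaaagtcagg
BST2, chr19:17405631-17405880, minus strand: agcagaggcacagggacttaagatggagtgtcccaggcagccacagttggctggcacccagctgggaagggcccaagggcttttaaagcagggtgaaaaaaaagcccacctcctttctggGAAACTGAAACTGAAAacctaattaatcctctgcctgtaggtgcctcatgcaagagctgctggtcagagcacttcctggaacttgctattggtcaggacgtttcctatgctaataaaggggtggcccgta
IFI27, chr14:94110486-94110735, plus strand: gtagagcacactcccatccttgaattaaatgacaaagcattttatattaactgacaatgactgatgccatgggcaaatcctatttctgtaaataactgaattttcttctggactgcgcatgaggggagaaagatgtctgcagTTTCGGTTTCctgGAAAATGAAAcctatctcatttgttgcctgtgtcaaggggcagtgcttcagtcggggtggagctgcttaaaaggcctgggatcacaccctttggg
OAS3, chr12:112938224-112938473, plus strand: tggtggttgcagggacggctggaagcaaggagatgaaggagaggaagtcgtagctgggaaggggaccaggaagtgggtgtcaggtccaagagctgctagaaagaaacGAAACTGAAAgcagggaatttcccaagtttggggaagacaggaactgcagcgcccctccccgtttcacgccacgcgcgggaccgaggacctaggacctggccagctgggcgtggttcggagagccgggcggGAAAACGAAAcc
In IFIH1 a single core lies 21 bases before the start and a pair of overlapping cores on the opposite strand begins 159 bases before it. The overlapping pair of BST2 begins 130 bases before the start. IFI27 carries cores of both orientations within a few bases of each other, and a match to the GAS core (TTC, any 3 bases and GAA), the element of the interferon gamma response, overlaps both.

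The ISRE core was a shared feature of the members and not of the 4 lowest alone. Over windows of 300 bases (250 before to 50 after the start), searched on both strands, 22 of 33 members with a promoter in the table held it (66.7%), beside 1195 of 27305 genes (4.38%) and 3.57% of all 35116 windows. The palindromic GAS core, which can overlap an ISRE core, was in 11 of the 33 (33.3%), beside 9.38% of genes. Of the 21 measured members with an ISRE core, 17 were below 0 (81.0%), with a median log2 ratio of −0.41, and all 4 of the genes at least 2-fold lower were among them. The 9 measured members without it, which include OAS1, IFI35, IRF1 and RIGI, were all below 0 (9 of 9), with a median of −0.14. Among these 9, CMPK2, HERC6, RIGI and IRF9 were dim, where the added constant draws ratios towards 0. The brighter OAS1 had −0.75 and IFI35 −0.76. Dim genes such as DDX60 and IFI44L were also among the members with a core. Whether the core went with a larger difference was not tested. Other genes on the array that held the core were not lower as a group. Of 498 such genes outside the list, 268 were below 0 (53.8%), with a median of −0.01, and 1 was at least 2-fold lower while 6 were at least 2-fold higher.

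A core in the promoter did not go with a lower level in every member. HERC5 and IFITM1, chosen for display after their values were seen, hold cores of the same kind and had log2 ratios of 0.08 and 0.03. The other members with a core and a ratio above 0 were ISG20 (0.01) and LGALS3BP (0.02). With the local background subtracted, HERC5 (−0.30) and ISG20 (−1.10) were below 0, and IFITM1 (0.15) and LGALS3BP (1.20) were above it.
HERC5, chr4:88456869-88457118, plus strand: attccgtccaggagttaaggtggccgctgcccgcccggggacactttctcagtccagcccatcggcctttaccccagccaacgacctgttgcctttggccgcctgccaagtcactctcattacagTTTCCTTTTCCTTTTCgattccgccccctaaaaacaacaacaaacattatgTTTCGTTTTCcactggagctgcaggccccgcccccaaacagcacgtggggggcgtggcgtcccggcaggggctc
IFITM1, chr11:313790-314039, plus strand: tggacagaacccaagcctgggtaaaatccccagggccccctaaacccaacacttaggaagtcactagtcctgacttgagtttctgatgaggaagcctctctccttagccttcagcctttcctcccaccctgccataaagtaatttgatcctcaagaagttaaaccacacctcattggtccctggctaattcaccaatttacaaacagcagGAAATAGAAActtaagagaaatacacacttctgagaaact
HERC5, the ligase that attaches ISG15 to proteins, had a spot of 135 on the CDR1AS array and 120.1 on the control array, and carries 3 cores on the opposite strand. IFITM1, a membrane protein that restricts virus entry and the only measured gene of its family, had 104 on the CDR1AS array and 95.6 on the control array. Neither gene was near the 2-fold line in the deposited table, at 30.1 and 25.9 for HERC5 and 15.7 and 14.2 for IFITM1 on the CDR1AS and control arrays.

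The 4 IFIT genes, whose proteins bind foreign RNA and hinder its translation, were all below 0 in the main values, with a median of −0.35, but IFIT3 was above 0 (0.40) and IFIT1 at −0.12 when the local background column of the spot files was subtracted. IFIT1 was lowest, with a spot of 83.5 on the CDR1AS array and 108 on the control array (log2 ratio −0.54), and was 3.17-fold lower in the deposited table. IFIT2 had a log2 ratio of −0.35 with its brightest probe and −0.45 with the other, IFIT5 of −0.34 and IFIT3 of −0.26. None of them was past 2-fold, and the spots of all 4 were between 83.5 and 138 on the CDR1AS array and between 108 and 152 on the control array. These genes lie next to each other on chromosome 10, with 1 further coding gene between IFIT3 and IFIT1.

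The OAS genes, whose enzymes make the oligoadenylates that activate the antiviral RNase L, had a median of −0.58 and were also all below 0 by their brightest probes. Beside OAS3, OAS1 had a spot of 283 on the CDR1AS array and 429 on the control array (log2 ratio −0.75, 1.68-fold lower). OASL, a relative without the enzyme activity, had 79.9 on the CDR1AS array and 95.3 on the control array (log2 ratio −0.40). OAS2 was close to background, at 75.6 on the CDR1AS array and 76.0 on the control array (log2 ratio −0.11). OAS1, OAS3 and OAS2 are neighbours on chromosome 12, and both of those well above background had lower spots on the CDR1AS array.

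The measured transcription factors of the pathway had a median of −0.24. IRF7, which drives interferon alpha genes, had a spot of 162 on the CDR1AS array and 187 on the control array (log2 ratio −0.33). IRF1, a factor of the interferon gamma response, had 505 on the CDR1AS array and 545 on the control array (log2 ratio −0.24). IRF9, the DNA-binding part of the complex that reads the ISRE, was dim and had 95.7 on the CDR1AS array and 91.3 on the control array (log2 ratio −0.02). The ratios of these 3 genes were at or below 0 but of the size seen between repeated spots of 1 array or little above it. The medians of the IFIT genes (−0.35) and of the other effectors (−0.29) were of similar size. With the local background subtracted, the medians were −0.48 for these 3 genes, −0.14 for the IFIT genes and −0.15 for the other effectors.

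Of the 22 measured other effectors, 18 were below 0, with a median of −0.29 and 2 at least 2-fold lower (BST2 and IFI27). After IFI6 came USP18, which removes ISG15 from proteins and dampens signalling at the interferon receptor, with a spot of 129 on the CDR1AS array and 195 on the control array (log2 ratio −0.77). IFI35, which binds the related protein NMI, had 241 on the CDR1AS array and 369 on the control array (log2 ratio −0.76). IFI44 was above background on the control array only, with 68.2 on the CDR1AS array and 98.2 on the control array, and was at least 1.56-fold lower (measured log2 levels of 5.71 and 6.45 on the CDR1AS and control arrays). MX1, a GTPase gene whose product blocks virus replication, had 104 on the CDR1AS array and 141 on the control array (log2 ratio −0.59). All of these effectors had a lower spot on the CDR1AS array.

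Smaller differences in the same direction were found for PARP9 (log2 ratio −0.45), an ADP-ribosylation gene, SAMD9 (−0.41), a translation-inhibiting antiviral gene, SP110 (−0.39), a nuclear body gene, and EPSTI1 (−0.24). ISG15, a ubiquitin-like protein that is attached to other proteins, was well above background, with 1751 on the CDR1AS array and 2074 on the control array (log2 ratio −0.33, 1.26-fold lower). At this brightness the added constant matters little. RSAD2, which encodes viperin, had −0.13, with spots of 141 on the CDR1AS array and 143 on the control array. The remaining effectors below 0 had ratios close to it, namely TRIM22 (−0.10), IFI44L (−0.05), HERC6 (−0.03) and XAF1 (−0.01), and CMPK2, above background on the control array only, which was at least 1.05-fold lower (measured log2 levels of 5.74 and 5.88 on the CDR1AS and control arrays). Of these, TRIM22, IFI44L, HERC6 and CMPK2 were close to the background limits.

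The other effectors above 0, beside HERC5, were ISG20, LGALS3BP and MX2, of which MX2 was under 2 times the limit on both arrays. ISG20, an exonuclease gene, had 384 on the CDR1AS array and 356 on the control array (log2 ratio 0.01). LGALS3BP, a secreted glycoprotein gene, had 434 on the CDR1AS array and 397 on the control array (log2 ratio 0.02, other probe 0.03). MX2, which acts against retroviruses, had 128 on the CDR1AS array and 111 on the control array (log2 ratio 0.12, other probe 0.09), although its neighbour on chromosome 21 is MX1. Neighbouring members thus had different ratios in this pair and also for IFI44 and IFI44L on chromosome 1, where IFI44L was near background on both arrays. SAMD9L was not above background on either array, as was also true of the second probe of CMPK2.

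**Figure D2:**
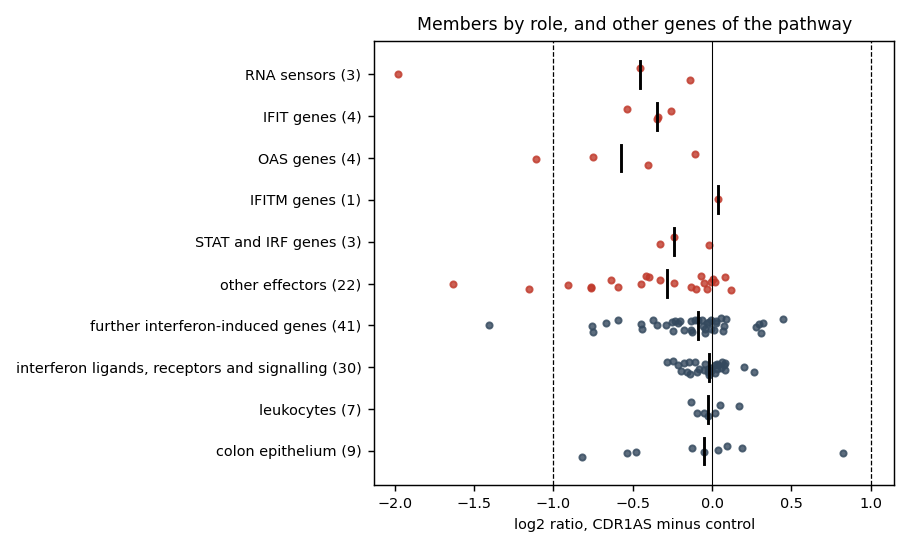
Log2 ratio (CDR1AS minus control, x axis) of each measured gene by group, with the number of genes in parentheses, medians as black bars and 2-fold as dashed lines. The members by role (upper 6 rows) lie mostly left of 0, while the ligands, receptors and signalling genes are spread around it.

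Genes upstream of the members had a median log2 ratio near 0, but many of them were dim, where the added constant draws ratios towards 0. Of 30 measured interferon ligands, receptors and signalling genes, 18 were below 0 and 12 above, beside 52.7% of all measured genes below 0. Their median was −0.02. In the main values none was past 2-fold lower or higher (0 and 0), beside 0.575% and 0.755% of all measured genes, so that few would be awaited in a list of this length. Of the 14 over 2 times the background limit on both arrays, 10 were below 0 and 4 above, with a median of −0.10, beside 51.4% of all genes at that limit below 0. By their brightest probes, the lowest of the 30 were the shared receptor subunit gene IL10RB (−0.28), STAT3 (−0.25) and MAVS (−0.21). The highest were PIAS1 (0.26), the interferon gamma receptor gene IFNGR1 (0.20) and the lambda interferon gene IFNL3 (0.08), which was close to background. Other probes gave −0.49 for IFNGR2 (brightest −0.11) and 0.29 for IFNAR2 (brightest 0.03). With the local background subtracted, TBK1 (−1.05) was past 2-fold lower and PIAS1 (1.08) past 2-fold higher, beside 3.33% and 4.32% of genes. IL10RB then had 0.22, STAT3 −0.19, MAVS −0.70, IFNGR1 0.05 and IFNL3 0.02. The interferon beta gene IFNB1 was near background, with 83.9 on the CDR1AS array and 80.4 on the control array (log2 ratio −0.02). Another lambda interferon gene, IFNL1, had 78.4 on the CDR1AS array and 75.3 on the control array, so both interferon transcripts were close to the limits.

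Further genes often induced by interferon, from a list of 46 that are no members, had a median closer to 0 than that of the members, with ratios in both directions. Of 41 measured, 29 were below 0 and 12 above, with a median of −0.09, beside 52.7% of all measured genes below 0. At least 2-fold lower was 1 gene, beside 0.575% of all measured genes, and at least 2-fold higher were 0, beside 0.755%. The lowest was NMI, whose product pairs with that of IFI35, with a spot of 198 on the CDR1AS array and 463 on the control array (log2 ratio −1.41). It was followed by TNFSF10, the gene of the death ligand TRAIL (−0.76), and GBP1, a guanylate-binding protein gene (−0.75, other probe −0.15). On the higher side were SP100 (0.44, other probe −0.09), a nuclear body gene, EIF2AK2 (0.32), which encodes the RNA-activated kinase PKR, and NT5C3A (0.31). With the local background subtracted, SP100 had −0.05, EIF2AK2 0.10 and NT5C3A −0.05, while NMI had −1.92, TNFSF10 −0.29 and GBP1 −0.58. EIF2AK2 had 627 on the CDR1AS array and 464 on the control array, opposite in direction to IFIH1, whose product also binds double-stranded RNA. ADAR, which edits such RNA, had a log2 ratio of 0.02.

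Some genes of these lists encode partners of members, and they are named here after their values were seen. UBE2L6, the conjugating enzyme gene of the ISG15 system, had 857 on the CDR1AS array and 1256 on the control array (log2 ratio −0.67), but its ratio was 0.66 with the local background subtracted. The activating enzyme gene UBA7 (−0.01) had a ratio near 0. DTX3L, the partner of PARP9, had the same log2 ratio as PARP9 (−0.45), with a second probe near background at −0.03.

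**Figure D3:**
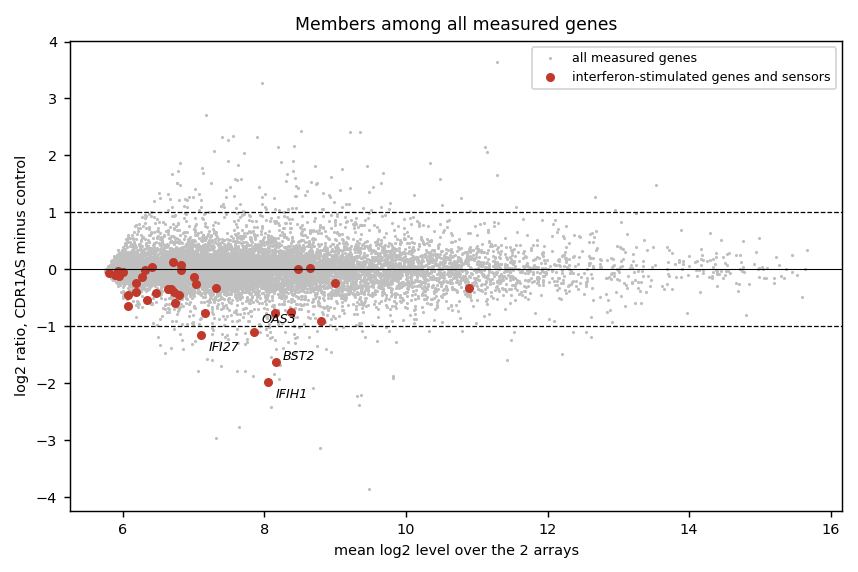
Log2 ratio (CDR1AS minus control) against mean log2 level for all 16685 measured genes (grey) and the 37 members (red), with 2-fold as dashed lines. The 4 named members lie below −1, and nearly all other members lie between −1 and 0 within the cloud of all genes.

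How large the member differences were depended on the scale. Of the 37 members, 26 were under 2 times the background limit on at least 1 array, where the added constant compresses the ratio and where the deposited table has few units to divide. DDX60, with a log2 ratio of −0.45, was 6.11-fold lower in the deposited table, but this rested on a value of 1.9 on the CDR1AS array and 11.6 on the control array. The 11 members over 2 times the limit on both arrays had a median of −0.75, with 9 below 0, beside 51.4% of all genes at that limit, and 3 at least 2-fold lower, beside 0.879%. That selection asks for a bright spot on the CDR1AS array as well, and it drops IFI27.

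The local background column of the spot files, which was not used for the main values, changed some members when it was subtracted. It followed the brightness of the spots themselves (Pearson's r across gene probes on the log scale 0.942 on the CDR1AS array and 0.977 on the control array, where probes are not independent replicates). With it subtracted, 28 of 37 members were below 0, beside 56.9% of all genes, with a median of −0.18 against −0.02 over all genes. At least 2-fold lower were 6 members, beside 3.33% of genes, and at least 2-fold higher were 2, ISG15 and LGALS3BP, beside 4.32%. For ISG15 the local background of 2109 on the control array exceeded the spot of 2074, while on the CDR1AS array it was 656 under a spot of 1751, which gave a log2 ratio of 3.21. IFIH1 (−1.70), BST2 (−1.95) and OAS3 (−1.05) remained at least 2-fold lower, IFI27 had −0.63, and IFI6 (−1.79), IFI35 (−1.68) and ISG20 (−1.10) were past the line.

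**Figure D4:**
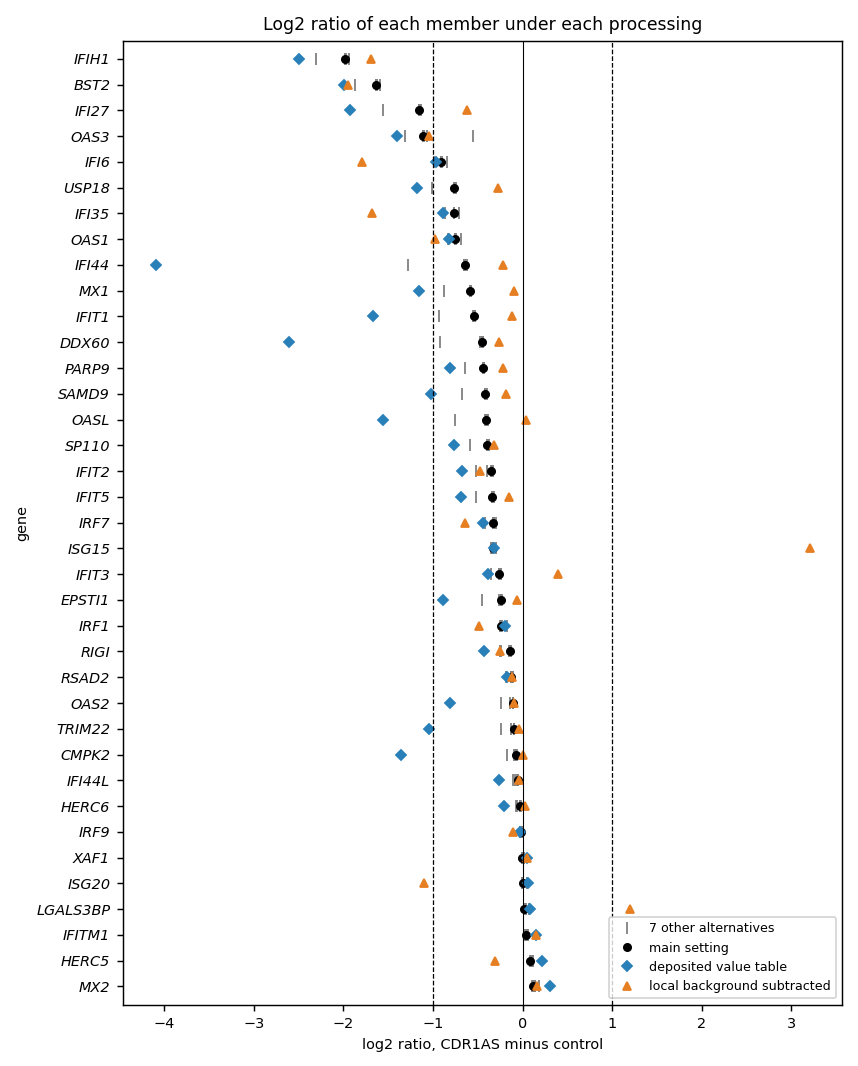
Log2 ratio (CDR1AS minus control, x axis) of each of the 37 members by the main values (black), by the deposited table (blue), with the local background subtracted and in 7 other alternatives, with 2-fold as dashed lines. IFIH1 and BST2 lie left of −1 in every setting drawn, ISG15 and LGALS3BP move far to the right with the local background subtracted, and the deposited values of IFI44 and CMPK2 are set against the lowest value listed on the CDR1AS array.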

How the data were processed

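Amino allyl RNA made from total RNA carried Cy5 on one-colour arrays, per the labels' protocols. Per the file headers, the deposited intensity of a spot is its median brightness at 635 nm, scanned at 3 gains (how these were joined: not given in the sources used here). The deposited value table was set against the spot files: it is a straight line of each array's intensity (largest residual 0.0559 on the CDR1AS array and 0.0510 on the control array), with the blank level subtracted and both medians at 25, on a linear scale. Scale and centring were thus settled. Which array is CDR1AS, and so the direction of every ratio, rests on the sample titles alone.

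In R 4.3.3, limma 3.58.1 gave the main values by normexp correction without the local background (offset 50), quantile normalization over 24459 gene probes (1 left out for a quality flag) and log2. Each gene was taken as its brightest probe and kept if either array showed it above background. If just 1 array did, the other side was raised to the lowest value of probes above background there (where its own was lower), and such folds are written "at least". Of the probes, 21706 had 1 symbol, 0 several and 2753 none, and all 45 member probes matched RefSeq (GRCh38.p14) by gene identifier.

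With 1 array per group no test was possible, and precision is limited by that number. All members were to be described, in full where at least 2-fold apart or above background on 1 array only, together with the extremes of the pathway lists. The members and lists were chosen with earlier results of these data known. The steps were tested on simulated data in which only brighter probes were changed, each by more than 2-fold. That test therefore does not cover dim genes or smaller differences. In addition, 9 alternative settings were tried. The markers of HEK293 cells, a lentivirus packaging line, were measured for 4 genes (median −0.14). All 4 were above background on both arrays, NEFM with 161 on the CDR1AS array and 146 on the control array. Past 2-fold were 0, beside 0.575% of all measured genes lower and 0.755% higher, so that few would be awaited. Whether packaging cells were present was not tested.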

Additional observations from a re-analysis of the deposited data

How the results depend on the processing

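Under 9 alternatives (1 of them, which set the median of each of the 24 print blocks to 0, chosen after seeing the data) the median of the members stayed below 0. It moved by more than the largest SD of repeated positive-control spots (0.24) in the deposited value table (−0.78) and with 2 times the background limit on both arrays (−0.75, 11 genes). The count at least 2-fold lower was 13 in the deposited value table and between 3 and 6 in the other alternatives. The count at least 2-fold higher was 2 with the local background subtracted. The count below 0 was 9 of 11 with the stricter limit, where fewer genes were tested. By role, the sensor median was −0.92 with an offset of 16, −1.57 in the deposited value table and −1.98 with the stricter limit (IFIH1 alone). In the deposited value table the IFIT median was −0.69, the OAS median −1.11 and the median of other effectors −0.85. With the stricter limit the OAS median was −0.93 (2 genes) and that of other effectors −0.55 (6 genes). The STAT and IRF median was −0.48 with the local background subtracted. The cause of these moves was not tested, except where fewer genes were left. IFIH1 and BST2 were at least 2-fold lower in 9 of 9 alternatives, OAS3 in 8 of 9 (−0.55 with the median of its probes) and IFI27 in 7 of the 8 that measured it. These tallies include repeats. Omitting the filter or using the stricter limit only changes which genes are kept, so a gene kept there repeats its main value. The median of a gene's probes does the same where a gene has 1 probe. None of the 4 changed sign. Of 307 values of single members under an alternative, 48 moved by more than that SD (0.24), but the 307 include those repeated main values, which could not move. No paired analysis was possible because each group is 1 array.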

Other observations

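Where members that lie side by side in the genome were both measured, the ratios differed between clusters, but several of these genes were close to background. On chromosome 10 the IFIT genes were within 0.28 of each other on the log2 scale. On chromosome 2 CMPK2 and RSAD2 were both near 0 (−0.07 and −0.13), and on chromosome 4 HERC6 and HERC5 were too (−0.03 and 0.08). CMPK2 and HERC6 were close to the background limits, where ratios are drawn towards 0. OAS1 (−0.75) and OAS3 (−1.11) on chromosome 12 were lower than OAS2 (−0.11), which was close to background. IFI44 (at most −0.64) on chromosome 1 was above background on the control array only, and IFI44L (−0.05) was near background. On chromosome 21 MX1 (−0.59) and MX2 (0.12) were apart.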
